A study of Rattus with 12 samples.

Results

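Oligodendrocytes are the glial cells that wrap axons of the central nervous system in myelin, a stack of lipid-rich membrane held together by a small set of abundant proteins. They arise from oligodendrocyte precursor cells (OPCs), which first become newly formed oligodendrocytes and then switch on the genes of the mature sheath under the control of Sox10, the Olig factors and Myrf. Late genes of this kind were followed here, namely Mbp, Mog, Mag, Mobp, Cnp, Myrf, Ermn, Opalin and Aspa, taken by their symbols, with earlier results of these data known. All 9 were found among the 17337 gene symbols of the counts table, and all 9 were among the 12271 genes that passed the filter on low counts.

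The data were poly(A) RNA sequencing of 12 complex cultures of primary Sprague Dawley rat cells, made of purchased cortical neurons, astrocytes and OPCs. Cultures were left untreated (0 μM, letters A, G, M and P) or received fentanyl, an opioid agonist, at a low dose of 0.01 μM (B, H, N and Q) or a high dose of 10 μM (C, I, O and R), beginning at 24 to 26 days in vitro and lasting 4 days. Each dose had 4 cultures, and the untreated cultures shared the same cells and schedule without the drug. OPCs, not mature oligodendrocytes, were plated, so any myelin gene transcript was made by cells that had matured in the dish or was carried by other cells of the culture. Nothing in the labels ties a culture to separate animals or cell lots, so p-values measure only the spread between these cultures, and the 4 runs of neighbouring letters, called here the A set (A to C), the G set (G to I), the M set (M to O) and the P set (P to R), are not stated to be a pairing or a batch. Total counts were 12059872 to 17023909 in the untreated, 12907388 to 16512387 in the low dose and 15102785 to 24813893 in the high dose condition.

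One library stood apart. Untreated G had a summed level of the 12 neuron markers of 259 CPM (read counts scaled to a common library size), against 3312 to 4772 CPM in the other 11 cultures, and a fibroblast marker sum of 2796 CPM, which was exceeded only by low dose N with 4009 CPM and was 112 to 629 CPM elsewhere. The members' and lists' comparisons with the untreated condition are therefore also given without G. The main fit held 1 estimated factor of unwanted variation, at 0.647 in G and -0.502 to -0.127 in the other 11 cultures. The factor thus set G apart already in the fit with all cultures. Library sizes were adjusted by the trimmed mean of M-values (TMM), and since levels are not divided by transcript length they compare a gene with itself across cultures, not 1 gene with another.

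The labelled lineage was present at every dose. The 9 genes together took 0.681% ± 0.490 of all counts in the untreated condition, 0.766% ± 0.499 at the low dose and 0.784% ± 0.415 at the high dose (SD, n = 4 each). The smallest count of any member was 17, for Ermn in untreated A. Mbp alone gave 61.5% to 72.2% of the members' counts. The 4 tested markers of Schwann cells, which make peripheral myelin, summed to 24.1 to 62.2 CPM. Ncmap, a membrane protein of peripheral myelin, had 0 counts in all 12 libraries, which allows up to 3 counts in each.

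Mbp encodes myelin basic protein, which holds the inner faces of the compact myelin membrane together. Its level was 904, 2573, 7624 and 8022 CPM in untreated A, G, M and P, 1418, 9866, 3562 and 7017 CPM in low dose B, H, N and Q, and 1138, 8205, 5881 and 7164 CPM in high dose C, I, O and R. Each dose had its lowest value in its A set culture, far below its other 3, and the 3 conditions overlapped over almost their whole ranges. The means were 4781 ± 3582, 5466 ± 3732 and 5597 ± 3121 CPM (SD, n = 4) at 0, 0.01 and 10 μM. The same locus also gives golli transcripts, made in neurons and immune cells, which gene-level counts cannot separate from those of myelin.

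**Figure D1:**
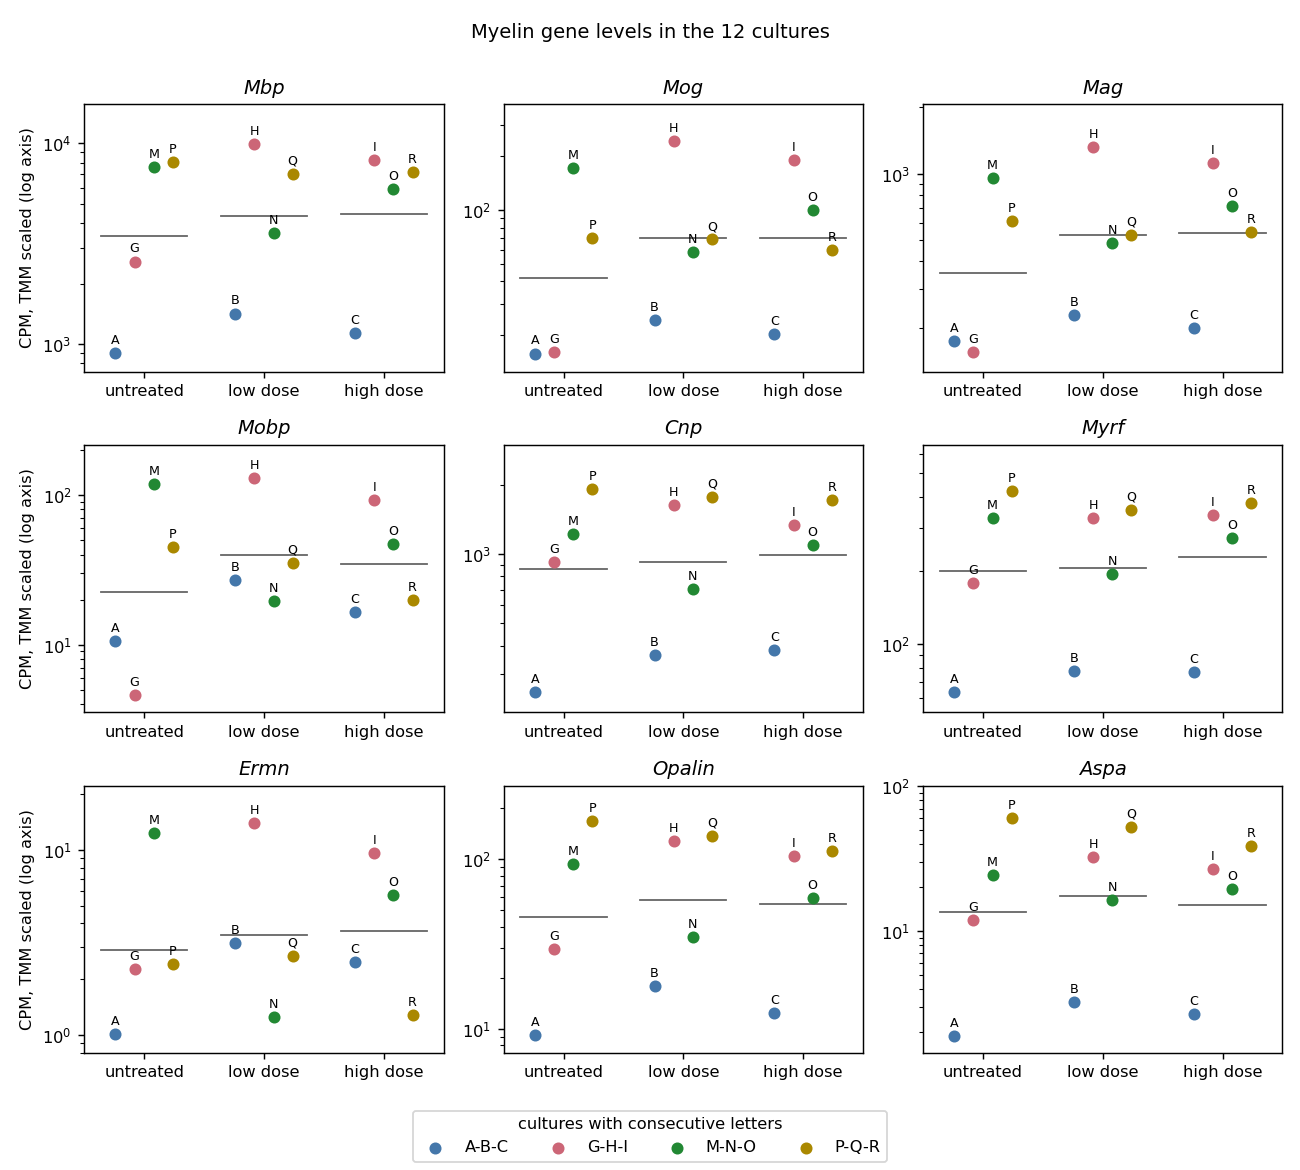
Level of each of the 9 myelin and mature oligodendrocyte genes in the 12 cultures, in TMM-scaled CPM on a log axis, by fentanyl condition. Points are single cultures with their letters, colours are sets of consecutive letters, and grey lines are geometric means of 4 cultures. Cultures A, B and C lie low for most genes at all 3 doses, with Mbp between 904 and 1418 CPM, and untreated G lies well below H and I.

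Mog and Mag encode proteins of the myelin surface, Mog on the outermost face of the sheath and Mag on the inner face that touches the axon. Mog was at 15.8, 16.2, 171.6 and 70.3 CPM in A, G, M and P, at 24.3, 243.6, 58.2 and 68.6 CPM in B, H, N and Q, and at 20.3, 190.0, 100.6 and 60.1 CPM in C, I, O and R. Untreated G was at the level of A, B and C for this gene, whereas H and I, which follow it in the alphabet, held the highest values of all. Mag was at 175, 155, 954 and 613 CPM in the untreated, 228, 1321, 486 and 529 CPM in the low dose and 199, 1116, 712 and 541 CPM in the high dose cultures, in the same letter order. Here G was the lowest of the 12 cultures and H and I again the highest.

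Mobp, a protein of compact myelin, and Ermn, which encodes ermin, a cytoskeletal protein of late oligodendrocytes, had the same order of cultures within the G set and within the M set. The other members shared this order, except Myrf in the G set. Mobp was at 10.5, 4.61, 118.9 and 45.1 CPM in A, G, M and P, at 27.0, 130.3, 19.7 and 35.4 CPM in B, H, N and Q, and at 16.4, 92.2 and 46.7 CPM in C, I and O and 19.9 CPM in R. The highest Mobp value was 28.3-fold the lowest. Ermn was the scarcest member, at 1.003 to 14.0 CPM, with its highest values in H (14.0 CPM), M (12.4 CPM) and I (9.63 CPM) and values of 1.28 to 2.68 CPM in P, Q and R.

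Cnp and Myrf are the members that come on earliest in maturation. Cnp, a phosphodiesterase of the uncompacted cytoplasmic channels of myelin, was at 250.0, 920.5, 1226 and 1923 CPM in A, G, M and P, at 362, 1632, 705 and 1771 CPM in B, H, N and Q, and at 382, 1338, 1097 and 1713 CPM in C, I, O and R. Myrf, the transcription factor that drives the mature myelin genes, was at 63.7, 178, 328 and 425 CPM in the untreated, 77.9, 329, 193 and 356 CPM in the low dose and 76.7, 338, 271 and 378 CPM in the high dose cultures. These were the members with the smallest range over the 12 cultures, 7.69-fold for Cnp and 6.66-fold for Myrf, and their highest values lay in untreated P.

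Opalin, a transmembrane protein of oligodendrocytes, and Aspa, the aspartoacylase that cleaves N-acetylaspartate made by neurons, shared that peak in P. Aspa was at 1.89, 11.9, 24.2 and 60.6 CPM in A, G, M and P, at 3.23, 32.4, 16.4 and 52.3 CPM in B, H, N and Q, and at 2.67, 26.7, 19.4 and 38.4 CPM in C, I, O and R. Its range of 32.1-fold was the widest of the 9. Opalin ran from 9.21 CPM in A to 168.3 CPM in P, with 128.1 and 104.8 CPM in H and I and 29.5 CPM in G.

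The first question was whether 4 days of fentanyl changed these genes against the untreated condition. No member was called changed at either dose, and the mean differences were small beside the spread of the cultures. At the low dose the fitted log2 fold change was 0.08 for Mbp (SE 0.82, 95% interval -1.74 to 1.90), 0.40 for Mog (SE 0.96, -1.73 to 2.53), 0.33 for Mag (SE 0.72, -1.27 to 1.94) and 0.04 for Mobp (SE 0.95, -2.08 to 2.15). The remaining members lay between -0.14 for Myrf (SE 0.68, -1.64 to 1.37) and 0.14 for Ermn (SE 1.02, -2.13 to 2.41), with Cnp at -0.03, Aspa at -0.08 and Opalin at -0.13. The adjusted p from edgeR's quasi-likelihood test with Benjamini-Hochberg adjustment over all genes was 1 for every member, and the unadjusted p ran from 0.654 to 0.971. The intervals were wide, and even that of Myrf, the narrowest, held differences of 2-fold in either direction.

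At the high dose 6 of 9 members had a fitted value above 0. Mog was at 0.38 (SE 0.94, -1.71 to 2.47), Mag at 0.38 (SE 0.71, -1.21 to 1.96) and Mbp at 0.14 (SE 0.81, -1.66 to 1.94) on the log2 scale. Cnp was at 0.00, Myrf at 0.03 and Ermn at 0.03. The lowest values were those of Aspa, -0.31 (SE 1.04, -2.61 to 1.999), Opalin, -0.20 (SE 0.92, -2.25 to 1.85), and Mobp, -0.07 (SE 0.93, -2.14 to 2.001). The edgeR adjusted p was 0.9999 for all 9, with unadjusted p of 0.610 to 0.995.

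The second question was whether the 2 doses differed from each other. High dose minus low dose was 0.06 for Mbp (SE 0.79, -1.69 to 1.82), 0.17 for Myrf (SE 0.65, -1.29 to 1.62) and -0.22 for Aspa (SE 1.005, -2.45 to 2.01), and the other 6 lay between -0.11 and 0.04. The edgeR adjusted p was again 0.9999 for every member and the unadjusted p 0.806 to 0.983. An exact two-sided permutation test of the log2(CPM + 1) values, whose smallest possible p over 70 arrangements of 4 against 4 is 0.0286, gave p of 0.486 to 0.886 for low dose against untreated, 0.457 to 0.886 for high dose against untreated and 0.771 to 1 between the doses. The mean differences behind this test hold no factor. Against untreated they ran from 0.04 (Myrf) to 0.74 (Mobp) at the low dose and from 0.12 (Aspa) to 0.71 (Mog) at the high dose.

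**Figure D2:**
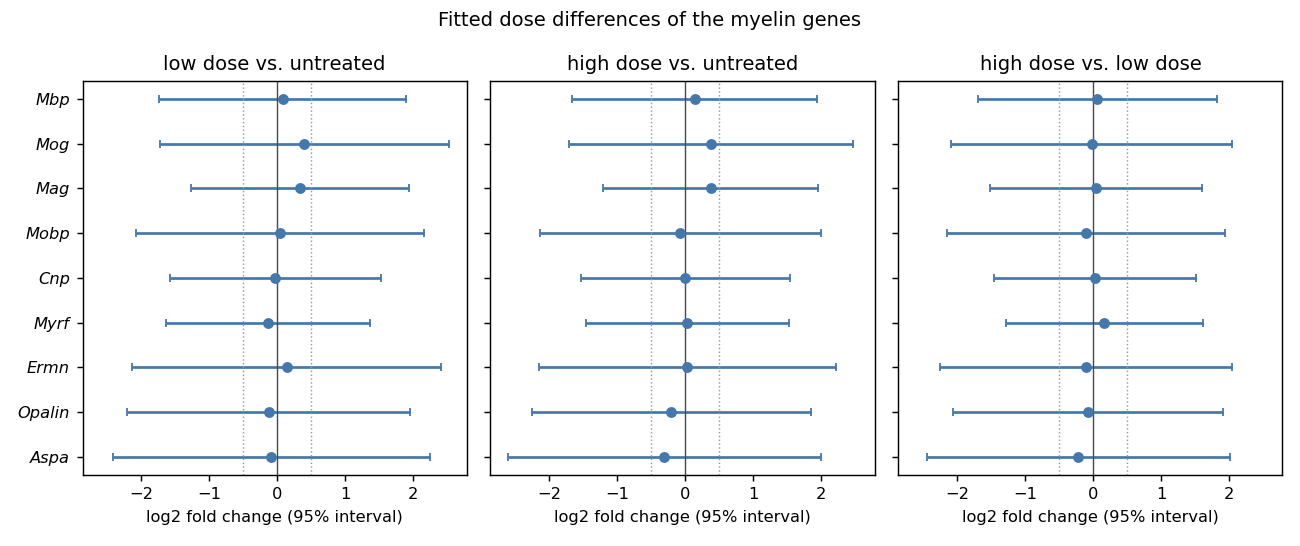
Fitted log2 fold changes of the 9 genes for the 3 dose comparisons. Points are edgeR estimates over all 12 cultures, bars are 95% intervals, and dotted lines mark the threshold of 0.5 used for a call. All 27 intervals include 0, and the points lie between -0.31 and 0.40.

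The background held no edgeR calls either. Of all 12271 genes, 0% passed the rule for a call, a log2 fold change past 0.5 in either direction at an adjusted p below 0.05, in each of the 3 comparisons with edgeR, and DESeq2 with the same factor called 0, 3 and 1 genes, none of them a member. The study, which used RUVseq and edgeR at these thresholds, reports differentially expressed genes in each of the 3 comparisons. The 0% therefore belongs to the fit used here. At an unadjusted p under 0.05 the shares were 0.742% (91 genes) for low dose against untreated, 1.19% (146) for high dose against untreated and 1.17% (144) for high against low dose, and 0 of 9 members were among them in any comparison. These shares lie below the rate of 0.05 that the threshold allows when nothing differs. The fit, which has no term for the letter sets, was thus conservative, and few calls do not show a lack of change. Cultures of 2 doses failed to overlap for 0.407%, 0.685% and 1.19% of all genes in the same order, and for 0 of 9 members. The members' median log2 fold changes were 0.04, 0.03 and -0.02, beside 0.01, 0.00 and -0.01 over all genes tested.

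With untreated G left out of the fit, 0 members were called and the members' medians against untreated were 0.29 at the low and 0.32 at the high dose, beside 0.02 and 0.01 over all 12337 genes then tested. Mbp was at 0.30 (SE 0.67, 95% interval -1.20 to 1.80) at the low and 0.41 (SE 0.67, -1.10 to 1.92) at the high dose, and Cnp, whose interval was then the narrowest, at 0.29 (SE 0.41, -0.62 to 1.202) and 0.43 (SE 0.41, -0.49 to 1.35). Mog was at 0.31 and 0.27, Mag at 0.27 and 0.31, Opalin at 0.30 and 0.33 and Aspa at 0.47 and 0.43. Myrf was at 0.09 and 0.32, Mobp at -0.07 and -0.32 and Ermn at -0.03 and -0.21. Without G the untreated condition keeps A, with the lowest summed level of the members, but has no culture of the G set. Each dose keeps H or I, so the letter sets are unequal between the conditions. With a block by letter sets in place of the factor in the fit without G, Mbp, Mog, Mag and Ermn were below 0 at both doses. That fit differs in both terms, so the change of sign cannot be put down to the block alone. The part of this imbalance in the values without G, here and for the lists below, was not tested. The edgeR adjusted p was 0.994 to 0.9997 at the low dose and 0.9999 at the high dose, with unadjusted p of 0.464 to 0.976 and 0.322 to 0.847. The exact two-sided permutation test gave p of 0.743 to 1 at each dose, and with 3 untreated cultures against 4 it cannot go below 0.0571.

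Within the letter sets the sign of the difference depended on the set. In the A and G sets all 9 members were higher at the low dose than untreated, and in the M set all 9 were lower. In the P set 8 of 9 were lower, with Ermn the exception at 0.11. For Mbp, the low dose minus untreated difference in log2(CPM + 1) was 0.65 in the A set, 1.94 in the G set, -1.10 in the M set and -0.19 in the P set. Mobp spanned the most, from 4.55 in the G set to -2.53 in the M set, and Myrf less, from 0.88 to -0.76.

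At the high dose, all 9 members were higher in the A and G sets and all 9 lower in the M and P sets than untreated, with Mbp at 0.33, 1.67, -0.37 and -0.16 and Mog at 0.35, 3.48, -0.76 and -0.22 in that order of sets. These values share the untreated cultures with the low dose ones, so the likeness of the 2 patterns is not separate evidence. Between the doses, 1 of 9 members was higher at the high dose in the A set (Cnp), 1 in the G set (Myrf), 9 in the M set and 3 in the P set. No member moved in the same direction in all 4 sets in any comparison, against 9.34%, 10.4% and 22.8% of all genes for low against untreated, high against untreated and high against low dose.

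The 9 genes varied between cultures far more than most genes. The SD of log2(CPM + 1) over the 12 cultures was larger than that of 93.1% (Myrf) to 98.6% (Aspa) of all genes tested. With G left out, the letter set accounted for 60.2% (Ermn), 64.8% (Mobp) and 91.3% to 97.8% (the other 7) of the variance of each gene, with a median of 93.9%, beside a median of 75.3% over all genes (quartiles 57.0% to 87.7%). Dose accounted for 0.112% to 0.916% of a member's variance, beside a median of 7.96% over all genes. In bulk RNA, fewer cells of a type and less RNA per cell cannot be told apart.

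**Figure D3:**
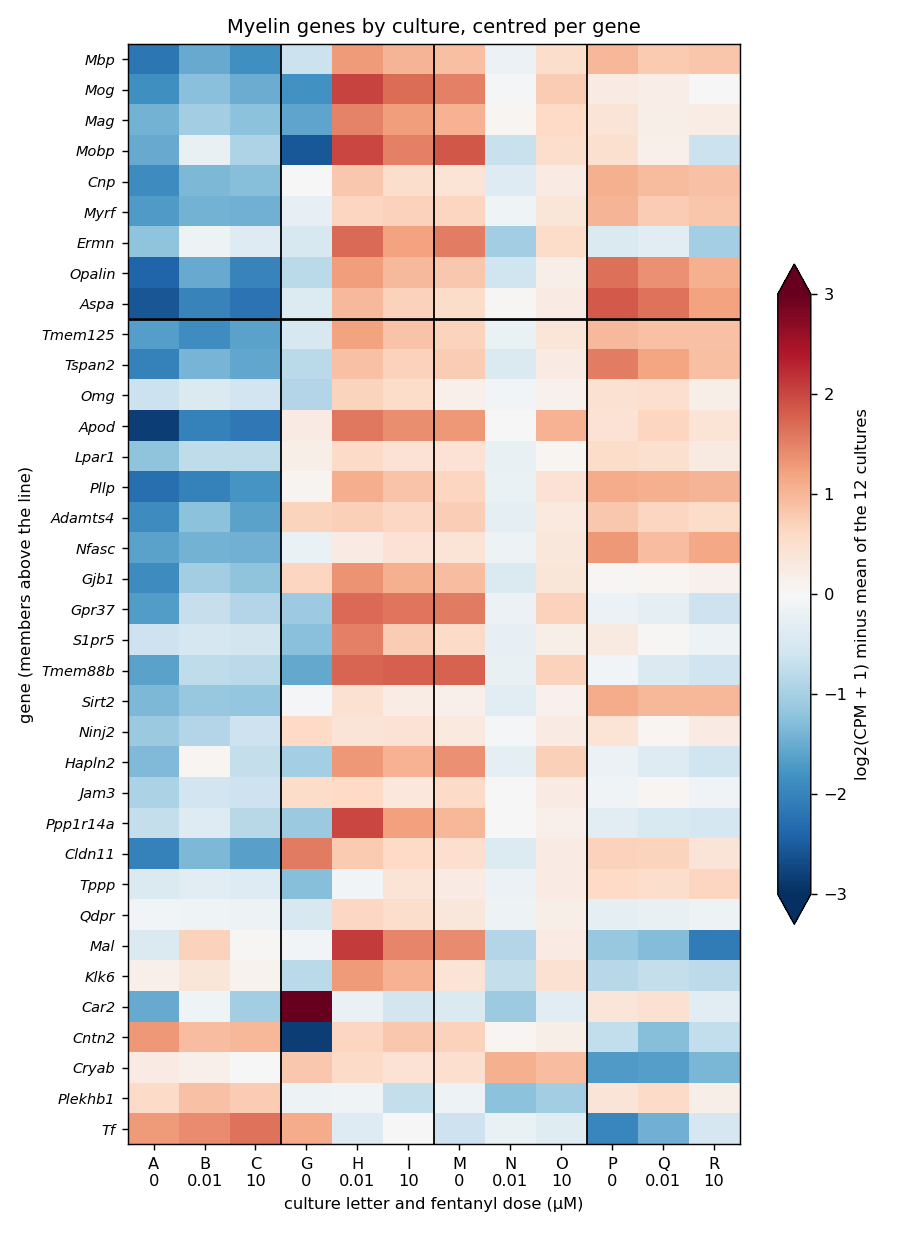
The 9 members (above the line) and 27 other myelin and mature oligodendrocyte genes in the 12 cultures, as log2(CPM + 1) minus each gene's mean, with vertical lines between sets of consecutive letters and the dose in μM under each letter. Genes below the line are sorted by their correlation with the members, from Tmem125 (r = 0.95) to Tf (r = -0.82). A, B and C lie below the mean for all 9 members, and H, I and M above it.

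The low level in A, B and C was shared by much of the lineage. In log2(CPM + 1), all 9 members were lower there than in the other 9 cultures, from -0.77 for Ermn to -3.02 for Aspa with a median of -2.03. So were all 8 transcription factors (median -1.54), all 9 genes of newly formed oligodendrocytes (-1.76), all 10 OPC markers (-1.22) and all 7 lipid enzymes (-1.35). Of the other mature genes 23 of 29 were lower (median -1.20), with Tf (1.93), Cntn2 (1.43) and Plekhb1 (0.99) among those higher, and their sum, in which Tf weighs heavily, was 14460 to 18090 CPM in A, B and C and 11990 to 21390 CPM elsewhere. A, B and C were grouped, and Cntn2 and Plekhb1 named, after their values were seen, so these differences have no test. The share of all genes lower in A, B and C was not counted, so the counts of lower genes have no background beside them. The members' summed level was 1431, 2162 and 1851 CPM in A, B and C, against 3892 to 13700 CPM in the other 9 cultures. The 8 tested transcription factors of the lineage summed to 212 to 285 CPM in A, B and C and 637 to 1264 CPM elsewhere, with Sox10, a factor of every stage of the lineage, at 55.7 to 70.4 CPM against 141 to 257 CPM and Olig1 at 43.9 to 63.4 CPM against 243 to 521 CPM. OPC markers summed to 657, 795 and 893 CPM there and 1105 to 2401 CPM elsewhere. Summed neuron markers in the same 3 cultures, at 4304 to 4772 CPM, were within or just above the range of the other cultures apart from G. Gene by gene, 0 of 12 neuron markers were lower there than in the other 9 cultures (median 0.53), but those 9 include G.

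Untreated G was unlike its neighbours H and I in the members more than in the lineage factors. The geometric mean of H and I exceeded G by 23.8-fold for Mobp, 13.3-fold for Mog, 7.82-fold for Mag, 5.11-fold for Ermn, 3.93-fold for Opalin and 3.50-fold for Mbp, and by 2.46-fold for Aspa, 1.87-fold for Myrf and 1.60-fold for Cnp. All 9 members were lower in G than in H and I, beside 49% of all genes. A difference of more than 1 log2 unit in either direction from the mean of H and I was found for 25.6% of all genes. It was found for every member but Cnp and Myrf. Of the 8 transcription factors 4 were lower and 4 higher in G, and their sums were 1017 CPM in G and 968 and 929 CPM in H and I. Summed OPC markers were 2218, 1105 and 1449 CPM in the same order, but 4 of the 10 were lower and 6 higher in G. Ptprz1, at 1005 CPM in G, weighed most in that sum. Of the other lists, 21 of 29 mature genes, 6 of 9 genes of newly formed oligodendrocytes and 2 of 7 lipid enzymes were lower in G. G also had 6109 CPM of astrocyte markers, against 3553 and 2392 CPM in H and I, beside its few neuron and many fibroblast markers, and the part of these in the myelin values was not tested. The cultures compared in this paragraph and the next were picked after their values were seen, so the differences are a description with no test.

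P, Q and R differed from H and I in which members were high. Ermn was lower in P, Q and R by 2.04 on the log2(CPM + 1) scale (difference -2.04), Mobp by 1.76 (-1.76), Mog by 1.69 (-1.69) and Mag by 1.11 (-1.11), while Mbp differed by -0.28. Aspa was higher by 0.73, Cnp by 0.28, Opalin by 0.24 and Myrf by 0.21. The 2 groups of cultures did not overlap for 8 of 9 members, Opalin being the exception, but 54.6% of all genes did not overlap either, so separation as such was common between these cultures. A difference of more than 1 log2 unit in either direction was found for 4 of 9 members and 5.86% of all genes.

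Genes of earlier stages lay on the other side. All 9 tested genes of newly formed oligodendrocytes were higher in P, Q and R than in H and I (median difference 0.60), as were all 10 OPC markers (0.77) and all 8 transcription factors (0.46), while 21 of 29 other myelin and mature genes were lower (median -0.50). The median difference over all genes tested was 0.003, and the share of all genes higher in P, Q and R was not counted. Bcas1, a marker of oligodendrocytes that are starting to myelinate, was at 919, 872 and 903 CPM in P, Q and R against 570 and 638 CPM in H and I. P, Q and R also held the most astrocyte marker RNA (6915 to 10190 CPM, against 3553 and 2392 CPM in H and I) and the least microglia marker RNA (36.7 to 44.5 CPM, against 623 and 826 CPM), and the part of either in the myelin values was not tested.

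**Figure D4:**
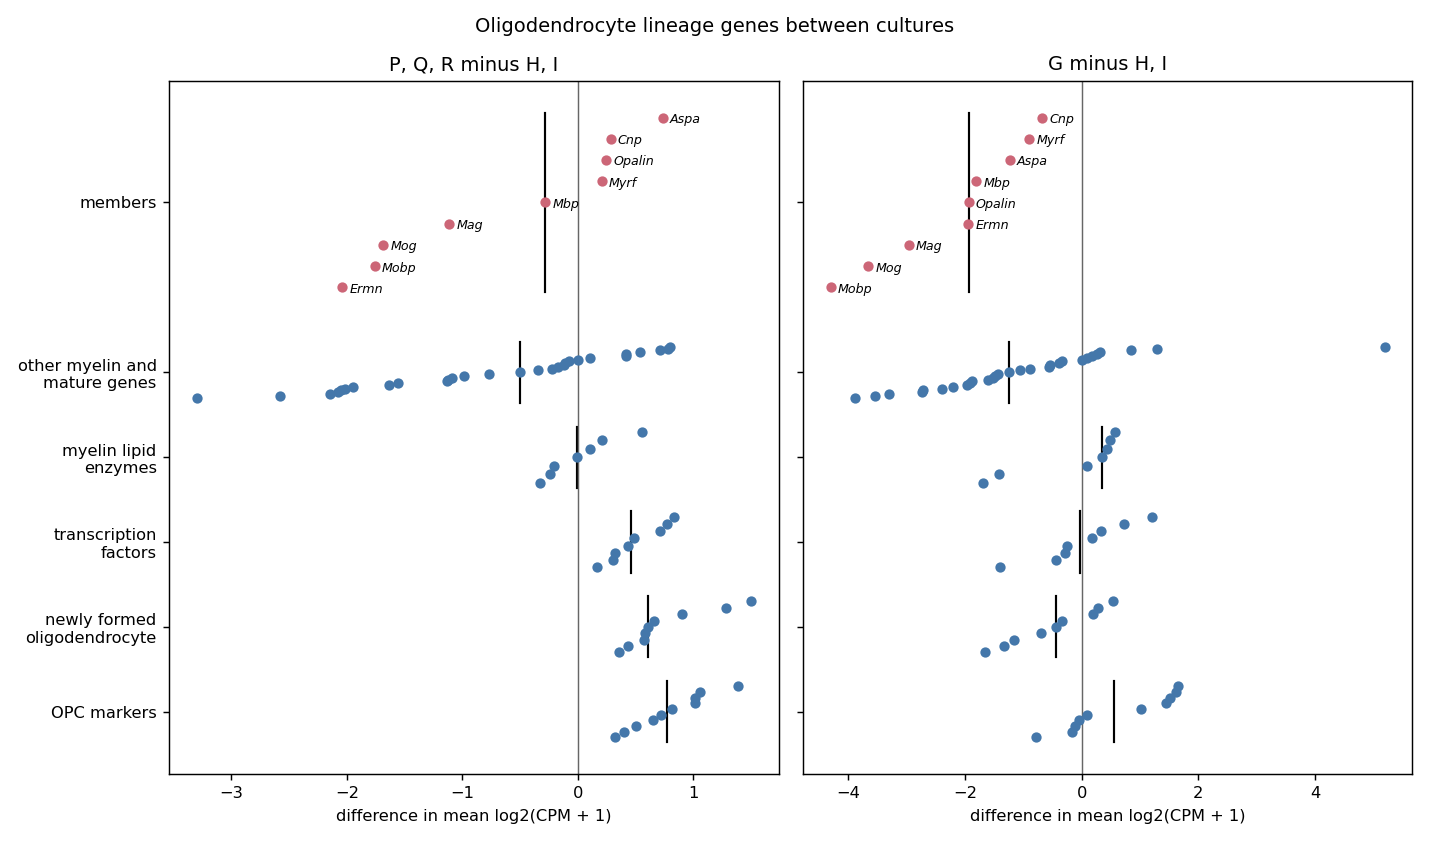
Differences in mean log2(CPM + 1) for genes of the oligodendrocyte lineage, between cultures P, Q and R and cultures H and I (left) and between untreated G and cultures H and I (right). Points are genes, black bars are list medians, and the members are named. On the left, Ermn, Mobp, Mog and Mag lie between -2.04 and -1.11 while all 10 OPC markers lie above 0. On the right, all 9 members lie below 0, from Cnp at -0.68 to Mobp at -4.30.

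Low dose N was below untreated M for all 9 members (summed level 5076 against 10550 CPM), beside 49% of all genes. Mobp was at 19.7 CPM in N and 118.9 CPM in M, and Ermn at 1.24 and 12.4 CPM, while Aspa was at 16.4 and 24.2 CPM. Of the other lists, 27 of 29 mature genes, 7 of 7 lipid enzymes, 9 of 9 genes of newly formed oligodendrocytes, 8 of 8 transcription factors and 6 of 10 OPC markers were lower in N. N had the highest sums of fibroblast (4009 CPM, against 629 CPM in M) and microglia markers (1246 against 545 CPM), and the part of these cells was not tested.

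No gene of the other pathway lists was called by edgeR for a dose difference either. Errors were wide for several of them, with an SE of 0.86 for Tf at the low dose against untreated. The lack of calls therefore does not show that these genes were unchanged. Of 29 tested myelin and mature oligodendrocyte genes from a list of 32 (Gjc3, Carns1 and Anln were not analysed here), 0 were called by edgeR in any comparison, with 0 at an unadjusted p under 0.05 and medians of 0.05, 0.15 and 0.02 for low against untreated, high against untreated and high against low dose. Among the most abundant were Tf, the iron carrier transferrin, with a mean of 6151 CPM and fitted values of -0.09, 0.15 and 0.24 in that order, and Nfasc, an adhesion molecule of the node and its flanks, with 1106 CPM and -0.30, -0.03 and 0.27.

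All 7 listed enzymes of myelin lipids were tested, with 0 called and medians of -0.03, 0.00 and 0.00. Ugt8, which makes galactosylceramide, was at -0.04 (SE 0.77) at the low and -0.06 (SE 0.76) at the high dose against untreated. Cers2 and Elovl1, which make very long chain ceramides and fatty acids, were within 0.10 of 0 in all 3 comparisons. Around Aspa, 4 of 5 genes of the N-acetylaspartate pathway were tested (Rimkla was not analysed here) and 0 were called. Nat8l, the neuronal enzyme that makes N-acetylaspartate, was at 0.53 (SE 0.55) and 0.69 (SE 0.55) against untreated and at 0.08 and 0.24 without G, Acss2, which activates the acetate that Aspa frees, at -0.11 and -0.15, and Folh1, a peptidase that releases N-acetylaspartate, at -0.27 and -0.78 (SE 0.46). Nat8l was at 11.6 CPM in G and 152 to 373 CPM elsewhere, in step with the neuron markers of that culture.

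The regulators and earlier stages were alike. Of 8 tested transcription factors of 11 listed, with Sox17 at no more than 6 counts, 0 were called and the medians were -0.07, 0.04 and 0.09. Olig1, Sox10 and Olig2, the most abundant, were at -0.15, 0.01 and -0.08 at the low and -0.14, 0.10 and 0.04 at the high dose. Of 6 tested inhibitors of differentiation of 7 listed, with Hes5 at no more than 10 counts, 0 were called (medians -0.05, 0.07 and 0.02), with Lingo1, a receptor component on neurons and oligodendrocytes, at 0.58 (SE 0.39) and 0.42 (SE 0.40) but 0.10 and -0.05 without G, where it was at 9.54 CPM against 154 to 251 CPM elsewhere, Id2 at -0.02 and -0.15, and Gpr17 at -0.18 and 0.33 against untreated. For 9 genes of newly formed oligodendrocytes the medians were -0.14, 0.02 and 0.10, with Bcas1 at -0.07 and 0.21, Fyn, a kinase of early myelination, at 0.00 and 0.10, and Tns3 at -0.12 and 0.05. For 10 OPC markers of 11 listed they were -0.16, -0.04 and 0.09, with Ptprz1 at -0.36 and -0.34, Tnr at -0.32 and 0.11, and Vcan at -0.21 and 0.11, and 0 were called in either list. With all 12 cultures none of the tested genes of these lineage lists reached an unadjusted p under 0.05 in any comparison. Without G the medians against untreated at the low and high dose were 0.18 and 0.17 for the other mature genes, 0.15 and 0.19 for lipid enzymes, 0.00 and -0.24 for the N-acetylaspartate pathway, 0.18 and 0.36 for transcription factors, 0.11 and 0.11 for inhibitors, 0.12 and 0.36 for genes of newly formed oligodendrocytes and 0.08 and 0.39 for OPC markers, with 0 genes called. In these comparisons 1 transcription factor (high dose) and 1 OPC marker (low dose) had an unadjusted p under 0.05. As for the members, the letter sets are unequal between the conditions without G, so these medians cannot be read as dose differences.

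Marker lists of other cell types had medians farther from 0 than the members in most comparisons. For low against untreated, high against untreated and high against low dose they were 0.41, 0.58 and 0.15 for 12 neuron markers, -0.21, -0.54 and -0.24 for 8 tested astrocyte markers, 0.88, 0.89 and -0.01 for 10 microglia markers, and 0.85, -0.29 and -1.13 for 6 fibroblast markers, with 0 genes called by edgeR in any of these lists and 1 neuron marker (high against untreated) and 1 fibroblast marker (low against untreated) at an unadjusted p under 0.05. Without G the medians at the low and high dose against untreated were -0.04 and 0.08 for neuron, -0.10 and -0.29 for astrocyte, 0.62 and 0.48 for microglia and 1.39 and 0.01 for fibroblast markers. The low dose difference of Snap25, a synaptic protein, was 5.54 in the G set and -0.01, -0.22 and 0.01 in the A, M and P sets. The summed levels of the untreated cultures ran from 259 to 4772 CPM for neuron, 3013 to 8824 CPM for astrocyte, 36.7 to 1117 CPM for microglia and 112 to 2796 CPM for fibroblast markers, against 3312 to 4339, 2874 to 10190, 44.5 to 1246 and 124 to 4009 CPM at the low dose and 4008 to 4733, 1747 to 6915, 43.1 to 842 and 135 to 461 CPM at the high dose. Endothelial markers summed to 45.5 CPM in G, where Cdh5, named for its value, had 439 and Flt1 237 counts, and to 0.951 to 6.96 CPM in the other 11 cultures. The part of this makeup in the members' dose values was not tested.

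**Figure D5:**
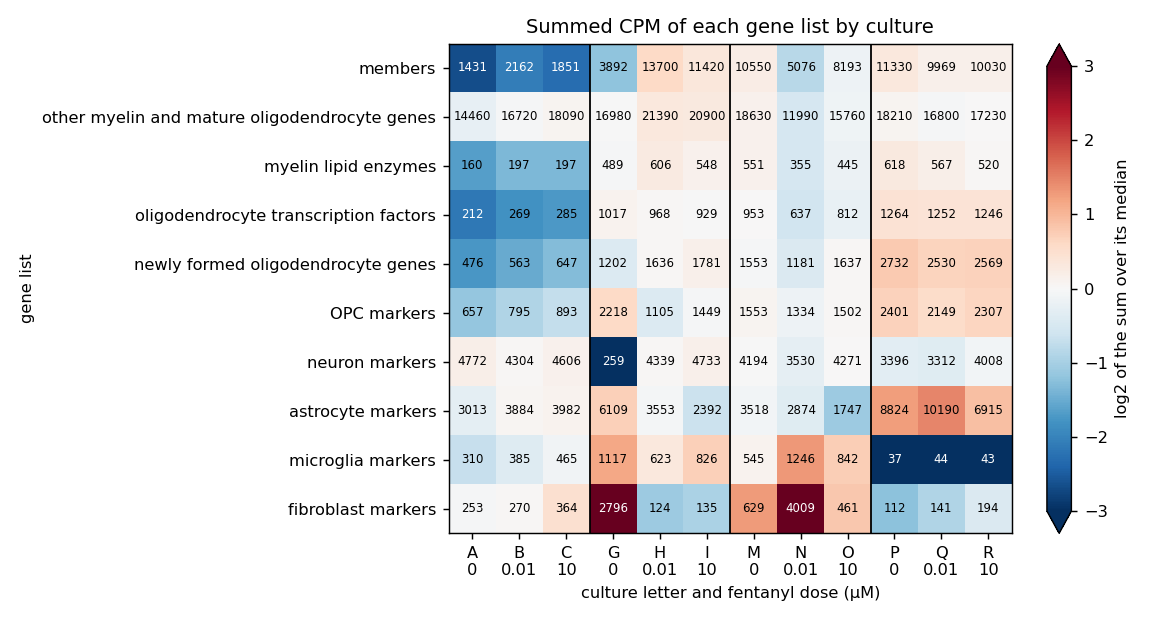
Summed CPM of the members and of 9 other gene lists in each culture, printed in the cells, with colours for the log2 of the sum over its median across cultures and the dose in μM under each letter. The members' sum is lowest in A (1431 CPM) and highest in H (13700 CPM). Neuron markers are at 259 CPM in G, and microglia markers at 36.7 to 44.5 CPM in P, Q and R.

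The members followed one another across cultures. The correlation of each with the mean of the other 8, over 12 cultures in log2 CPM, was 0.98 for Mbp, 0.94 for Mag and Opalin, 0.93 for Mog, 0.92 for Myrf, 0.89 for Cnp, 0.86 for Aspa, 0.77 for Mobp and 0.61 for Ermn, and without G it was 0.98 for Mbp and 0.60 for Ermn. Among the other genes tested, those most like the members' mean included Fa2h (r = 0.99), Nacad (0.98), Slain1 (0.98), Gpd1 (0.98), Naaladl1 (0.97), Hs3st1 (0.97), Pim3 (0.97), Ugt8 (0.97) and Ybx3 (0.97). Fa2h and Ugt8 act in the synthesis of galactosylceramide, the characteristic lipid of myelin. The 12 points share libraries and fall into letter sets, so these values describe the cultures and carry no p. Of the 29 other mature genes 15 had r above 0.8, with a median of 0.82, and at the other end was Tf with r of -0.82. The share of all genes with r above 0.8 was not counted, so this count has no background beside it. Tf was highest where the members were lowest, at 11410, 12580 and 14440 CPM in A, B and C, and was at 1211, 1711 and 3272 CPM in P, Q and R.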

How the data were processed

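Poly(A) RNA of 12 cultures was sequenced, 4 per dose. Per the labels and the study's methods, the authors used STAR for alignment to the rat build rn6, and featureCounts for counting. Deposited values are raw counts per gene symbol and were used as deposited (17337 symbols, 2226 at 0 everywhere). The library kit does not mark strand, so reads of overlapping genes on opposite strands cannot be told apart.

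Groups came from the labels. Genes kept by filterByExpr (12271) were scaled by TMM and fitted over all 12 cultures with edgeR 4.0.16 (R 4.3.3) quasi-likelihood tests, with dose and 1 RUVs factor as terms and Benjamini-Hochberg adjustment over all kept genes. Calls were log2 fold changes past 0.5 in either direction at an adjusted p below 0.05. The study names RUVseq and edgeR with these thresholds but not the number of factors. Intervals are 95%. Alternatives were no factor, 2 factors, DESeq2 1.42.0, its size factors, no filter, a block by the 4 runs of neighbouring culture letters in place of the factor, and each culture left out. Scripts were tested on simulated data. Named genes were the 9 members, the 3 genes of highest mean CPM in each list, defining markers near 0 and the 10 genes most like the members. Members and lists were chosen with earlier results of these data known. All 9 symbols matched current RefSeq gene symbols (GRCr8), whose coordinates were not used. Some genes that these rules name are not reported here. Sequences were not analysed here.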

Additional observations from a re-analysis of the deposited data

Results flagged for a closer look

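Mbp in high dose culture C was set apart from the other 3 high dose cultures. Its gap to the nearest of them in log2(CPM + 1) was 0.831 of the whole range of that group. C was at 1138 CPM and I, O and R at 8205, 5881 and 7164 CPM. The other members had no such gap at any dose. Of 27 groups of 4 cultures tested, 1 was set apart. Chance gives about 1 in 20 for separate groups of like cultures. The 27 groups share the same cultures, their genes follow one another and each holds an A set culture, so the count cannot be set against that rate. A and B, the cultures with neighbouring letters, were also low, at 904 and 1418 CPM.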

How the results depend on the processing

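No member was called under any alternative. The members' medians moved by less than the spread between cultures, an SD of 1.39 log2 units against untreated and 1.1 between the doses. That margin is wide beside medians near 0, so staying within it says little about stability. Of 513 values of single members under the alternatives, 123 had the other sign than the reported value, and the cause was not tested. With no factor, low dose against untreated became 0.050 for Cnp, 0.084 for Opalin and 0.086 for Aspa. With 2 factors it became 0.34 for Cnp, 0.18 for Myrf, 0.43 for Opalin and 0.61 for Aspa, high dose against untreated became -0.035 for Ermn, 0.47 for Opalin and 0.56 for Aspa, and high against low dose 0.013 for Mog and 0.040 for Opalin. With a replicate block by letter sets, low dose against untreated became 0.11 for Cnp, 0.016 for Myrf, 0.24 for Opalin and 0.28 for Aspa, high dose against untreated 0.069 for Opalin and 0.077 for Aspa, and high against low dose -0.026 for Mbp and -0.023 for Mag. With that block and without untreated G, low dose against untreated became -0.15 for Mbp, -0.33 for Mog, -0.22 for Mag, -0.56 for Mobp and -0.51 for Ermn, and high dose against untreated -0.15 for Mbp, -0.37 for Mog, -0.21 for Mag, -0.10 for Myrf and -0.64 for Ermn. Leaving out each culture in turn gave ranges for low dose against untreated of -0.39 to 0.67 for Mbp, -0.49 to 1.48 for Mog, -0.24 to 0.97 for Mag, -0.86 to 1.37 for Mobp, -0.56 to 0.80 for Cnp, -0.61 to 0.53 for Myrf, -1.02 to 1.61 for Ermn, -0.64 to 0.96 for Opalin and -0.65 to 1.35 for Aspa. For high dose against untreated they were -0.28 to 0.69 for Mbp, -0.23 to 1.44 for Mog, -0.031 to 1.01 for Mag, -0.69 to 1.23 for Mobp, -0.49 to 0.80 for Cnp, -0.41 to 0.68 for Myrf, -0.56 to 1.43 for Ermn, -0.64 to 0.80 for Opalin and -0.81 to 1.08 for Aspa. For high against low dose they were -0.24 to 0.51 for Mbp, -0.63 to 0.90 for Mog, -0.36 to 0.64 for Mag, -0.74 to 0.82 for Mobp, -0.25 to 0.33 for Cnp, -0.12 to 0.48 for Myrf, -0.70 to 1.06 for Ermn, -0.39 to 0.29 for Opalin and -0.62 to 0.30 for Aspa. The lowest of these values came without A or H at the low dose, without A or I at the high dose and without B, I or R between the doses, and the highest without M or P against untreated and without C, H or Q between the doses. Over all genes the calls for low against untreated, high against untreated and high against low dose were 0, 1 and 1 with 2 factors, 0, 3 and 1 with DESeq2, and 0, 15 and 14 with the block without G, and 0 otherwise. The letters are not stated to pair cultures, so the block is not a paired design. Depth limits Ermn most, at 17 to 226 counts per library.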

Other observations

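Car2, the carbonic anhydrase found in oligodendrocytes and other glia, is named here because of its values. It was at 316 CPM in untreated G and 2.95 to 14.4 CPM in the other 11 cultures, while all 9 members were lower in G than in H and I. Mal, a proteolipid of compact myelin also named after its values were seen, was at 69.1 and 44.5 CPM in H and I, 43.3 CPM in M and 6.49, 5.64 and 2.81 CPM in P, Q and R.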
